A study of Mus musculus with 12 samples.

Results

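Nearly all proteins of the mitochondrion are made in the cytosol and carried in through dedicated pores, and the 41 genes described here encode those pores, the chaperones that fold the arriving proteins and the proteases that trim or remove them. They were chosen by symbol: every gene in the array table whose symbol starts with Timm or Tomm, plus 24 named chaperones, proteases and inner membrane organisers. Of the 18148 symbols in the table, 41 were taken, with 59 of the 25697 probes. A probe was kept where its detection p-value, the chance of such a signal from the array's negative controls, was below 0.05 on at least 4 of the 12 arrays, and 36 of the 41 genes were kept, among 10967 genes in all. The arrays measured total RNA of ileum tumours from FVB/N mice aged 3 to 4 months. All the mice carried APCmin, a mutant allele of Apc that shortens this tumour suppressor protein and gives intestinal adenomas. Arrays 1 to 6 were FVBN/APCmin and arrays 7 to 12 were iPGC-1β/APCmin, 6 tumours of each. The comparison asked how tumours of the iPGC-1β genotype, named for the transcriptional coactivator PGC-1β, differed from those of FVBN/APCmin. The labels do not describe the construct, its promoter or the cells in which it is active, and name no animal for any tumour, so p-values measure only how these samples vary, which may be technical variation.

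A protein bound for the matrix carries a presequence at its start and first crosses the outer membrane through the TOM complex. The TIM23 complex then takes it through the inner membrane, pulled by a motor around the chaperone mtHsp70, after which a peptidase removes the presequence and the chaperonin Hsp60 with its lid Hsp10 helps it fold. Carrier proteins of the inner membrane take another path, escorted by small TIM chaperones to the TIM22 complex, and small cysteine-rich proteins are trapped in the intermembrane space by the oxidoreductase Mia40. PGC-1β is known as a coactivator of genes of mitochondrial respiration, whose products depend on this import.

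Both array 6 and array 7 stood apart from the arrays that share their label. Array 7, labelled iPGC-1β/APCmin, was closer across genes to the FVBN/APCmin arrays, with a correlation of 0.952 to 0.971 for arrays 1 to 5, than to its own genotype, where arrays 8 to 12 gave 0.852 to 0.892. Array 6, labelled FVBN/APCmin, lay between the genotypes, since arrays 1 to 5 gave 0.920 to 0.951 and arrays 8 to 12 gave 0.906 to 0.953. Whether either label is wrong cannot be told from these files, so every direction below follows the labels and the counts are also given without these arrays.

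Import and quality-control genes were mostly higher in iPGC-1β/APCmin tumours. Of the 36 genes tested, 31 had a positive log2 difference (iPGC-1β/APCmin minus FVBN/APCmin), with a median of 0.54 and a range of -0.72 to 1.23. Over all 10967 genes 48.6% had a positive difference and the median was -0.01. Past an adjusted p of 0.05 (limma, Benjamini-Hochberg over all genes), 5 of the 36 rose and 0 fell, where 3.45% of all genes passed, 2.22% rising and 1.23% falling. The 5 were Timm17a, Immt, Chchd4, Timm44 and Dnaja3, which encode a channel subunit of TIM23, the organiser of cristae junctions, Mia40, the anchor of the import motor and a matrix J-protein. At an unadjusted p below 0.05, 16 members were higher and 0 lower, against 11.5% and 11.8% of all genes. All 6 iPGC-1β/APCmin arrays lay above all 6 FVBN/APCmin arrays for 6 members, the 5 above and Timm8a1, and for 1.93% of all genes. For no member did all 6 lie below, as they did for 0.884% of all genes.

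**Figure D1:**
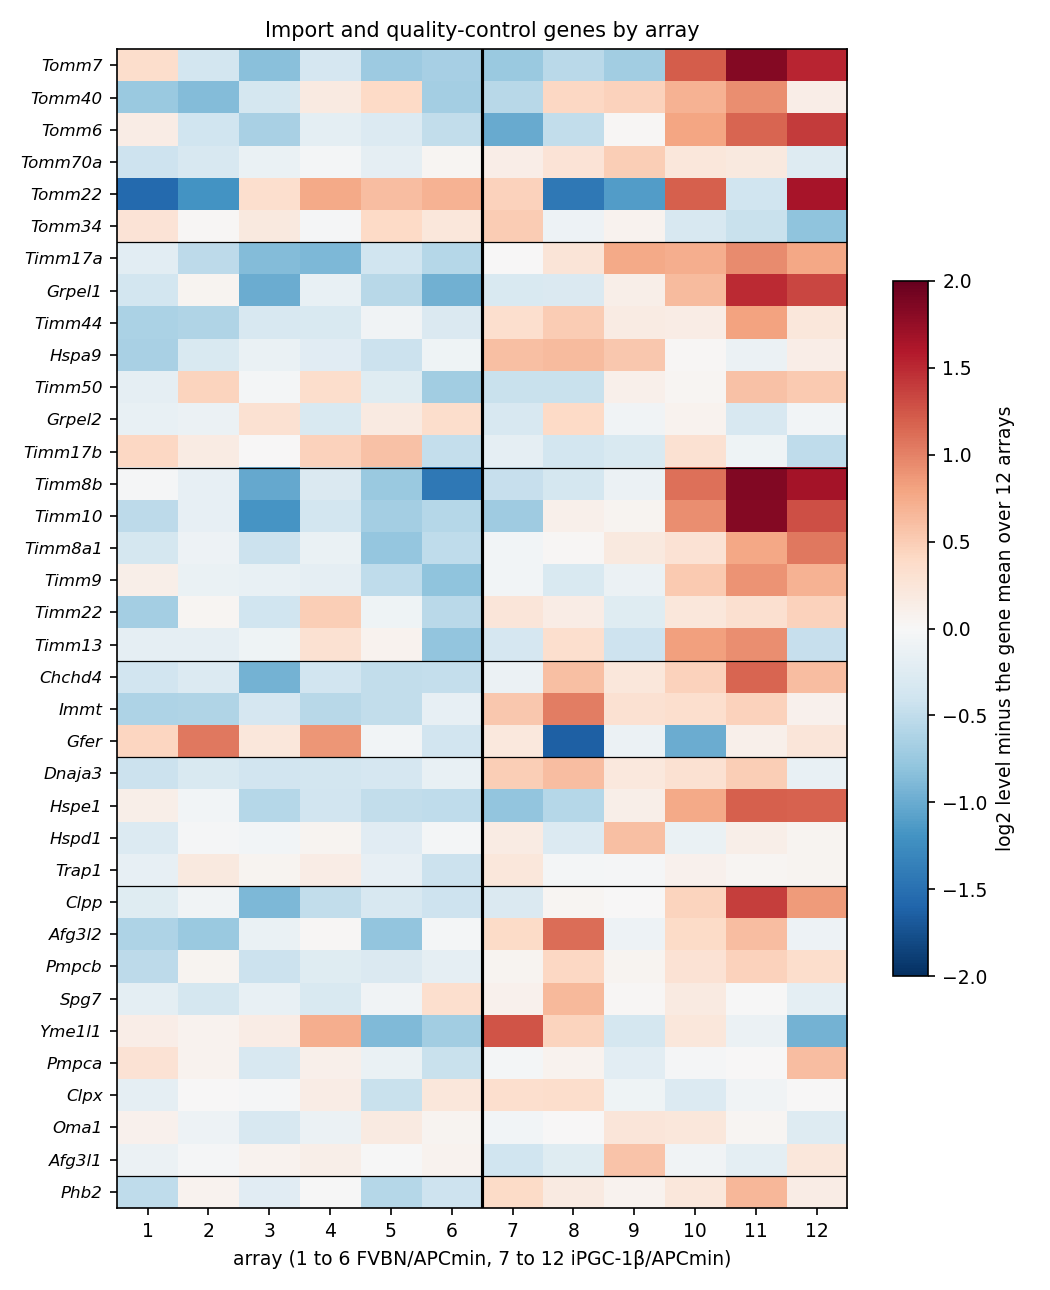
Heat map of the 36 tested genes (rows, grouped by role in the order outer membrane translocase, TIM23 and its motor, TIM22 and small TIMs, intermembrane space and cristae genes, matrix chaperones, peptidases and proteases, prohibitins) on the 12 arrays (columns), with colour for the log2 level minus the gene's mean over the arrays. The median over the rows is above 0 on arrays 8 to 12, right of the line, and -0.02 on array 7, and arrays 10 to 12 carry the deepest red in rows such as Timm8b and Tomm7.

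The median centred level over the 36 genes was -0.21, -0.11, -0.27, -0.12, -0.28 and -0.43 on arrays 1 to 6 and -0.02, 0.08, 0.05, 0.29, 0.48 and 0.22 on arrays 7 to 12. The summed picture thus placed array 7 and arrays 8 and 9 nearest to FVBN/APCmin, and array 6 farthest below. Other mitochondrial gene families moved the same way in these tumours. All 34 tested genes with symbols starting with Nduf, mostly subunits of respiratory complex I, had a positive difference, with a median of 1.02 and 13 past the threshold. Of 68 tested genes for mitochondrial ribosomal proteins, 67 had a positive difference, with a median of 0.60 and 4 past the threshold. Over all genes, 2.22% passed the threshold with a positive difference. No test compared these families with the import genes.

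**Figure D2:**
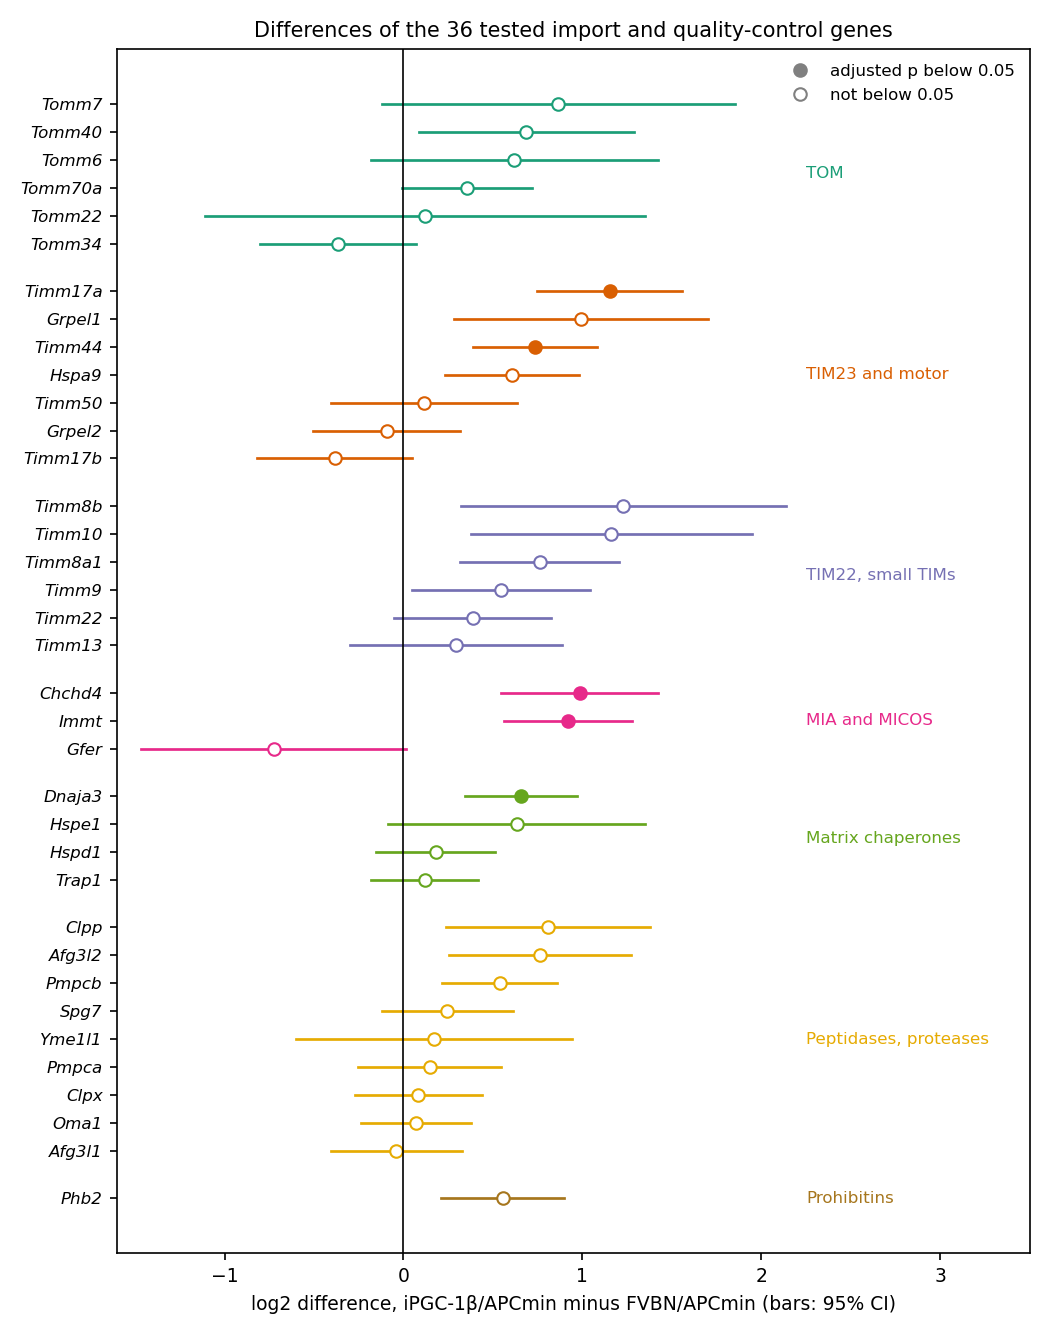
Log2 difference between the genotypes for each of the 36 tested genes (points, with 95% confidence intervals as bars), grouped and coloured by role. Filled points mark the 5 genes past the adjusted threshold, from Dnaja3 at 0.66 to Timm17a at 1.15, and Gfer lies lowest at -0.72.

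Tumours are mixtures, and fewer cells of a type cannot be told apart from less RNA per cell. Median raw intensity ran from 139.3 to 170.5 per array and 12858 to 14445 probes were detected. Beside the counts below, 2.22% of all genes passed the threshold higher and 1.23% lower. At an unadjusted p below 0.05 (limma) these shares were 11.5% and 11.8%. Genes of T and NK cells (12 tested) were all lower in iPGC-1β/APCmin, with a median of -2.06 and 5 past the threshold, and 9 of 10 B cell genes were lower, with a median of -3.34 and 1 past it. The summed linear level of the T and NK markers ran from 1522 to 8037 in FVBN/APCmin and from 420.1 to 7407 in iPGC-1β/APCmin, and that of the B cell markers from 1404 to 18430 and from 243.7 to 22872. Cd8a, Gzmb and Pax5 were not kept. Array 6 was low and array 7 high for these cells, each nearer the other genotype. Endothelial markers had mostly positive differences, with 4 of 6 higher at an unadjusted p below 0.05, 0 past the threshold and a median of 0.58. They summed to between 333.0 and 547.3 in FVBN/APCmin and between 381.7 and 731.4 in iPGC-1β/APCmin. Pecam1 and Kdr of this list had negative differences of -0.17 and -0.04. Of 6 macrophage genes 3 were higher and 3 lower, with a median of -0.15. Of 10 smooth muscle and fibroblast genes 5 were higher and 5 lower, with a median of 0.05. In both of these lists 0 passed the threshold. All 8 proliferation genes were lower, 3 of them at an unadjusted p below 0.05 and 0 past the threshold, with a median of -0.30. Markers of absorptive epithelium summed to between 120789 and 169353 in FVBN/APCmin and to between 78286 and 117253 in iPGC-1β/APCmin, with 6 of 9 lower and 0 past the threshold (5 lower at an unadjusted p below 0.05, limma). Fabp2 and Slc10a2, which encode the intestinal fatty acid binding protein and the ileal bile acid transporter, were not kept. For lymphocytes and epithelium, fits with their level as a covariate were run. The part of the endothelial, macrophage, smooth muscle and fibroblast, and proliferation genes in the result was not tested. With the combined lymphocyte level as a covariate, limma called 0 of the 36 members and 3 of all genes. At an unadjusted p below 0.05 this limma fit had 9 members higher and 0 lower, beside 1159 of all 10967 genes in either direction. The lymphocyte level, a mean of centred log2 levels, was 1.38 to 1.75 on arrays 1 to 5 and -2.17 to -1.31 on arrays 8 to 12. Only arrays 6 (-0.81) and 7 (1.86) part it from genotype, so its part and that of genotype cannot be told apart. Dnaja3 lost its call at 0.67 (SE 0.22), against 0.66 (SE 0.15) without the covariate. With the epithelial level as a covariate limma called 4 members higher (Dnaja3, Immt, Spg7 and Timm17a) and 1 lower (Gfer). Of all genes it called 235 higher and 261 lower, where the fit without a covariate called 243 and 135. The mean centred log2 level of the epithelial markers was 0.06 to 0.75 on arrays 1 to 6. Arrays 7 to 12 had -0.51 to 0.08, so this level largely follows genotype. Its part in these calls, those of Gfer and Spg7 among them, cannot be told apart from that of genotype.

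The count of 5 also moved with the arrays used. It was 13 without array 7, 13 without arrays 6 and 7 together and 2 without array 3. The share of all genes called higher moved too, from 2.22% to 7.73%, 9.63% and 0.839% in that order. Without arrays 1, 2, 4, 5 or 11, left out in turn, the count was 3, beside 0.939% to 1.15% of all genes. Ppargc1b, the gene for PGC-1β, was not higher in iPGC-1β/APCmin by its 1 probe. Its level was 8.80, 7.70, 8.22, 7.64, 9.17 and 8.94 on arrays 1 to 6 and 7.15, 8.10, 7.68, 8.14, 8.38 and 7.73 on arrays 7 to 12. The difference of -0.55 (SE 0.30, limma adjusted p = 0.296) was within the spread, so this probe does not check the labels, and the sources used here do not place it inside or outside the construct.

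At the outer membrane none of the 6 tested translocase genes passed the threshold, although 5 of 6 differences were positive, with a median of 0.49. Tomm40, the pore itself, had the smallest p among them. Arrays 1 to 6 gave log2 levels of 4.76, 4.64, 5.15, 5.68, 5.89 and 4.82, and arrays 7 to 12 gave 4.94, 5.91, 5.96, 6.19, 6.42 and 5.63. It averaged 5.16 ± 0.52 on the FVBN/APCmin arrays and 5.84 ± 0.52 on those of iPGC-1β/APCmin (SD, n = 6 each), a difference of 0.69 (SE 0.28, adjusted p = 0.161, limma) with overlapping groups, and it was detected on only 3 of 6 and 5 of 6 arrays. Tomm22, a receptor that hands precursors to the pore, was spread widely within both genotypes. It stood at 7.67, 8.04, 9.56, 9.98, 9.84 and 9.92 on arrays 1 to 6 and 9.70, 7.80, 8.12, 10.43, 8.82 and 10.87 on arrays 7 to 12. Arrays 1, 2, 8, 9 and 11 lay between 7.67 and 8.82 and the other arrays between 9.56 and 10.87, so the 2 ranges each held both genotypes. The difference of 0.12 had a 95% confidence interval of -1.11 to 1.35 and changed sign without array 1, 2, 10 or 12.

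Tomm7 and Tomm6, small subunits that tune the assembly of the pore, differed by 0.87 (SE 0.46, adjusted p = 0.277) and 0.62 (SE 0.37, adjusted p = 0.341). Tomm7 stood at 10.36, 9.65, 9.17, 9.67, 9.29 and 9.35 on arrays 1 to 6 and at 9.27, 9.48, 9.32, 11.23, 11.86 and 11.55 on arrays 7 to 12. Arrays 10 to 12 were therefore far above every other array, while arrays 7 to 9 lay among the FVBN/APCmin values. Tomm70a, a receptor for carrier precursors that arrive on cytosolic chaperones, differed by 0.35 (SE 0.17, adjusted p = 0.226). Tomm34, a cytosolic cochaperone of import rather than a subunit of the pore, had a negative difference. It stood at 9.46, 9.20, 9.38, 9.16, 9.58 and 9.42 on arrays 1 to 6 and 9.70, 9.08, 9.26, 8.86, 8.74 and 8.39 on arrays 7 to 12. Arrays 8, 10, 11 and 12 lay below all of arrays 1 to 6, but array 7 had the highest value of all 12. The difference was -0.36 (95% confidence interval -0.80 to 0.07, adjusted p = 0.301), and without arrays 10, 11 and 12 it was -0.02.

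In the intermembrane space 2 of the 3 tested genes rose. Immt encodes mitofilin (Mic60), the core of the MICOS complex that holds cristae junctions together. Measured log2 levels were 11.29, 11.30, 11.58, 11.36, 11.42 and 11.75 on arrays 1 to 6 and 12.45, 12.94, 12.21, 12.24, 12.37 and 11.99 on arrays 7 to 12. The lowest iPGC-1β/APCmin array, array 12, was above the highest FVBN/APCmin array, array 6. Immt averaged 11.45 ± 0.18 on the FVBN/APCmin arrays and 12.37 ± 0.32 on those of iPGC-1β/APCmin (SD, n = 6 each) and rose by 0.92 (SE 0.17, adjusted p = 0.0111), or 1.89-fold. In raw intensity before any normalisation it ran from 2487.8 to 3219.4 on arrays 1 to 6 and from 4483.2 to 7449.7 on arrays 7 to 12. Immt passed with each array left out in turn, and with a lymphocyte covariate its difference was 0.81 (adjusted p = 0.237).

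Chchd4 encodes Mia40, the receptor that oxidises incoming cysteine-rich proteins. Chchd4 was measured at 9.30, 9.41, 8.75, 9.30, 9.18 and 9.20 on arrays 1 to 6 and 9.56, 10.28, 9.90, 10.15, 10.85 and 10.31 on arrays 7 to 12 on the log2 scale. Every iPGC-1β/APCmin array was above the highest FVBN/APCmin value of 9.41, array 7 by the least. Chchd4 averaged 9.19 ± 0.23 on the FVBN/APCmin arrays and 10.18 ± 0.43 on those of iPGC-1β/APCmin (SD, n = 6 each) and rose by 0.99 (SE 0.20, adjusted p = 0.0222), or 1.98-fold. It missed the threshold without array 3 (adjusted p = 0.0595) or array 5 (0.0539), with the epithelial covariate (0.0784) and with the lymphocyte covariate (0.72 on the log2 scale, adjusted p = 0.378). Chchd4 also missed it without arrays 10, 11 and 12 together (0.73, adjusted p = 0.175). Gfer encodes the sulfhydryl oxidase that reoxidises Mia40, the other enzyme of the same relay, and its difference was the most negative of the 36. It stood at 11.03, 11.64, 10.83, 11.49, 10.55 and 10.22 on arrays 1 to 6 and 10.82, 8.97, 10.48, 9.60, 10.70 and 10.84 on arrays 7 to 12. The groups overlapped, and no iPGC-1β/APCmin array reached the FVBN/APCmin mean of 10.96. The difference was -0.72 (SE 0.34, adjusted p = 0.225, 95% confidence interval -1.46 to 0.02). It was -0.04 with the lymphocyte covariate (adjusted p = 0.991), -0.47 without array 8 and -1.79 with the epithelial covariate (adjusted p = 0.0177). Samm50, of the outer membrane sorting machinery, and Chchd3, a MICOS subunit, were detected on 3 arrays and 1 array and were not tested.

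**Figure D3:**
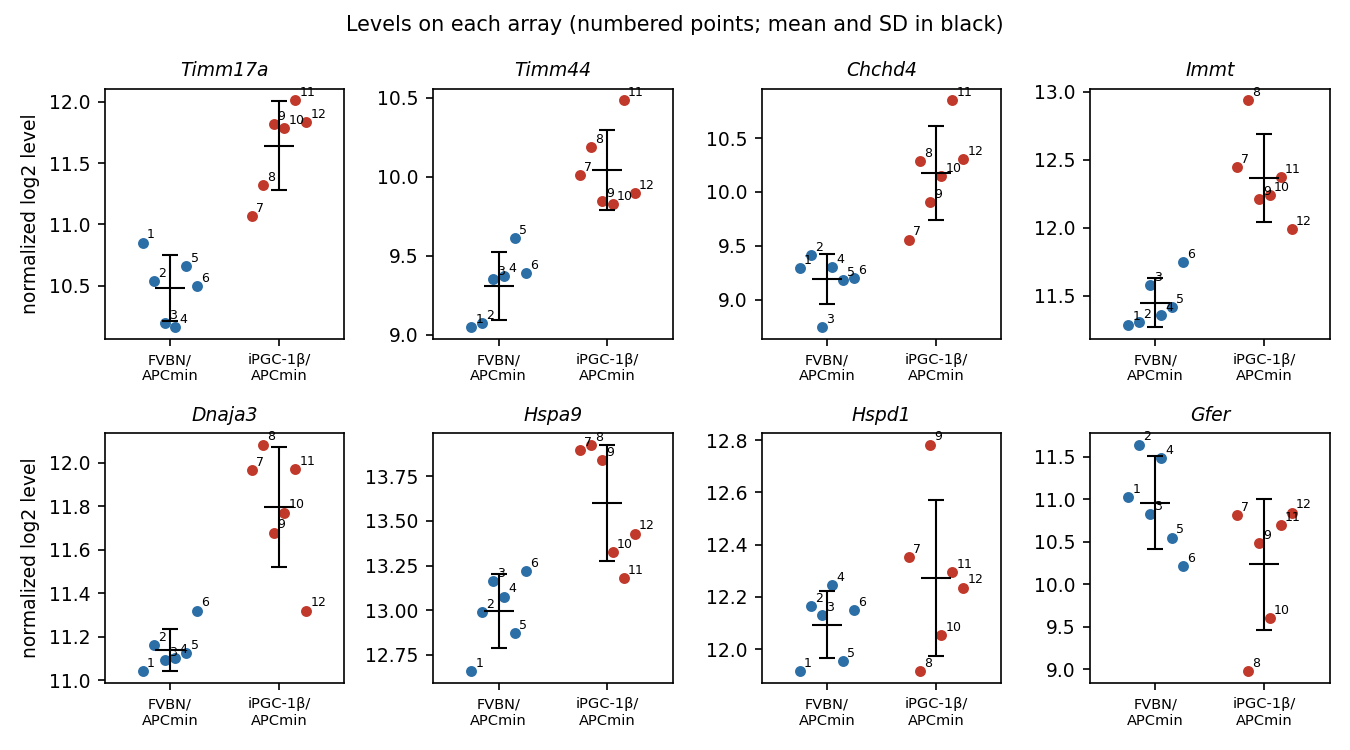
Normalised log2 level of 8 genes on each array (points, numbered by array) in FVBN/APCmin (blue) and iPGC-1β/APCmin (red), with the group mean and SD in black. The groups separate for Timm17a, Timm44, Immt, Chchd4 and Dnaja3, and overlap for Hspa9, Hspd1 and Gfer.

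The 6 tested genes of the carrier path all had a positive difference, with a median of 0.65, and none passed the threshold. Timm8a1, Timm8b, Timm9, Timm10 and Timm13 encode the small TIM chaperones and Timm22 the channel of the carrier translocase. Timm8a1 stood at 10.37, 10.62, 10.29, 10.59, 9.94 and 10.20 on arrays 1 to 6 and 10.65, 10.74, 10.91, 11.00, 11.48 and 11.77 on arrays 7 to 12. The lowest iPGC-1β/APCmin array was above the highest FVBN/APCmin array, by a narrow margin. It averaged 10.33 ± 0.25 on the FVBN/APCmin arrays and 11.09 ± 0.44 on those of iPGC-1β/APCmin (SD, n = 6 each), a difference of 0.76 (SE 0.21, adjusted p = 0.0556). The largest difference of all 36 members was that of Timm8b, at 1.23 (SE 0.42, adjusted p = 0.106), but it was carried by some of the arrays. Timm8b stood at 10.89, 10.76, 9.90, 10.63, 10.19 and 9.49 on arrays 1 to 6, and at 10.47, 10.57, 10.81, 12.02, 12.77 and 12.58 on arrays 7 to 12. Arrays 7 to 9 thus lay inside the FVBN/APCmin range and arrays 10 to 12 more than 1 unit above it. Timm10 was again highest on arrays 10 to 12, with 8.00, 8.80, 8.76, 9.64, 10.55 and 10.00 on arrays 7 to 12 against 7.53 to 8.55 on arrays 1 to 6, a difference of 1.16 (SE 0.37, adjusted p = 0.0834). Timm9 differed by 0.55 (SE 0.23, adjusted p = 0.175), Timm22 by 0.39 (SE 0.21, adjusted p = 0.278) and Timm13 by 0.29 (SE 0.28, adjusted p = 0.564). Timm13 and Timm22 were near the detection limit, with a detection p-value below 0.05 on 5 and 8 arrays.

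Of the presequence translocase and its motor, 2 of 7 tested genes rose and 5 had a positive difference, with a median of 0.61. Timm17a, which with Tim23 forms the channel through the inner membrane, had the smallest p of all members. Its log2 level was 10.85, 10.54, 10.19, 10.16, 10.66 and 10.50 on arrays 1 to 6 and 11.07, 11.32, 11.82, 11.78, 12.01 and 11.84 on arrays 7 to 12. All 6 iPGC-1β/APCmin arrays lay above all FVBN/APCmin arrays, with array 7 the lowest of them. Timm17a averaged 10.49 ± 0.27 on the FVBN/APCmin arrays and 11.64 ± 0.36 on those of iPGC-1β/APCmin (SD, n = 6 each) and rose by 1.15 (SE 0.19, adjusted p = 0.00752), or 2.22-fold (95% confidence interval of the log2 difference 0.75 to 1.56). Raw intensity ran from 1143.6 to 1863.3 in FVBN/APCmin and from 2017.3 to 5636.7 in iPGC-1β/APCmin. It passed with each array left out in turn, but not without arrays 10, 11 and 12 together (0.92, adjusted p = 0.098) or with the lymphocyte covariate (0.91, adjusted p = 0.218).

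Timm44 encodes the peripheral protein that tethers mtHsp70 to the channel, and its log2 level was 9.05, 9.07, 9.35, 9.37, 9.61 and 9.39 on arrays 1 to 6 and 10.01, 10.19, 9.84, 9.83, 10.48 and 9.90 on arrays 7 to 12. The groups did not overlap. It averaged 9.31 ± 0.21 on the FVBN/APCmin arrays and 10.04 ± 0.25 on those of iPGC-1β/APCmin (SD, n = 6 each) and rose by 0.74 (SE 0.16, adjusted p = 0.0276), or 1.67-fold. All 3 probes of Timm44 were kept, and their differences were 0.68, 0.74 and 0.72. The call was lost without array 1, 2, 3, 4 or 11, with adjusted p from 0.0542 to 0.074, and with the lymphocyte (0.305) and epithelial (0.0548) covariates. Leaving out arrays 10, 11 and 12 together also lost it (0.71, adjusted p = 0.126). Timm50, the receptor that guides presequences to the channel, did not differ beyond its spread. It stood at 9.06, 9.69, 9.20, 9.60, 9.00 and 8.55 on arrays 1 to 6 and 8.79, 8.79, 9.35, 9.27, 9.82 and 9.77 on arrays 7 to 12. The difference was 0.11 (95% confidence interval -0.41 to 0.63), and it turned to -0.48 with the epithelial covariate, to -0.21 without arrays 10, 11 and 12 and to -0.01 without array 6.

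Timm17b, the paralog of Timm17a, had a negative difference near the detection limit, being detected on 5 FVBN/APCmin arrays and on 1 iPGC-1β/APCmin array. It stood at 5.61, 5.36, 5.21, 5.67, 5.79 and 4.72 on arrays 1 to 6 and 5.02, 4.83, 4.89, 5.51, 5.11 and 4.69 on arrays 7 to 12. The ranges overlapped, and the difference was -0.38 (SE 0.20, adjusted p = 0.274, 95% confidence interval -0.82 to 0.05). Grpel1 and Grpel2 encode nucleotide exchange factors that recharge mtHsp70. Grpel1 differed by 0.99 (SE 0.33, adjusted p = 0.0987) and Grpel2 by -0.09 (SE 0.19, adjusted p = 0.812). Timm23, the pore-forming partner of Timm17a, was detected on 1 array at a raw intensity of 131.6 to 160.6 and was not tested.

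Matrix chaperones all had a positive difference (5 tested, median 0.61), and 1 passed. Dnaja3 encodes the J-protein Tid1, which stimulates mtHsp70. Its log2 level was 11.04, 11.16, 11.09, 11.10, 11.13 and 11.32 on arrays 1 to 6 and 11.97, 12.08, 11.68, 11.77, 11.97 and 11.32 on arrays 7 to 12. Arrays 7 to 11 lay clearly above the FVBN/APCmin arrays, while array 12 exceeded array 6 by only 0.000505. Dnaja3 averaged 11.14 ± 0.10 on the FVBN/APCmin arrays and 11.80 ± 0.28 on those of iPGC-1β/APCmin (SD, n = 6 each) and rose by 0.66 (SE 0.15, adjusted p = 0.0303), or 1.58-fold. With single arrays left out this call was the least stable of the 5, being lost without array 1, 2, 3, 4, 5, 10 or 11 (adjusted p from 0.0622 to 0.0757), without a detection filter (0.0555) and with the lymphocyte covariate (0.288). Leaving out arrays 10, 11 and 12 together also lost it (0.77, adjusted p = 0.0526). Hspa9, mtHsp70 itself, stood at 12.66, 12.99, 13.16, 13.08, 12.87 and 13.22 on arrays 1 to 6 and 13.90, 13.93, 13.84, 13.33, 13.18 and 13.43 on arrays 7 to 12. Array 11, the lowest of iPGC-1β/APCmin, lay just under array 6, the highest of FVBN/APCmin. The difference was 0.61 (SE 0.17, adjusted p = 0.0646), and a second probe gave 0.67. It passed under cyclic loess (0.71, adjusted p = 0.0133), under a common 75th percentile (0.83, 0.0222), with array weights (0.53, 0.0301), without arrays 6 and 7 (0.59, 0.0489) and without arrays 10, 11 and 12 (0.89, 0.0435). Hspa9 passed in no other setting, and with single arrays left out its adjusted p ran from 0.054 to 0.144.

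Hspd1, which encodes the chaperonin Hsp60, stood at 11.92, 12.17, 12.13, 12.25, 11.95 and 12.15 on arrays 1 to 6 and 12.35, 11.91, 12.78, 12.05, 12.30 and 12.24 on arrays 7 to 12. The groups overlapped, with arrays 7, 9 and 11 above and array 8 below all FVBN/APCmin arrays, and the difference was 0.18 (95% confidence interval -0.15 to 0.51, adjusted p = 0.524). A second probe gave 0.36. Hspe1, which encodes its lid Hsp10, stood at 9.91, 9.75, 9.23, 9.42, 9.31 and 9.29 on arrays 1 to 6 and 9.02, 9.24, 9.92, 10.55, 11.00 and 10.98 on arrays 7 to 12. Arrays 10 to 12 were higher than all others, array 7 was the lowest, and the difference was 0.63 (SE 0.33, adjusted p = 0.274), which turned to -0.09 without arrays 10, 11 and 12. The genes for Hsp60 and Hsp10 lie head to head in mammalian genomes and share a promoter region. No correlation of their levels was detected within a genotype, with Pearson's r of -0.345 over the FVBN/APCmin arrays (exact permutation p = 0.510) and 0.0162 over the iPGC-1β/APCmin arrays (p = 0.976, adjusted p = 0.976 for both, n = 6 each). Spearman's rho was -0.0857 in each genotype (exact permutation p = 0.919). Without the 2 arrays farthest from the median of Hspd1, r was 0.240 and -0.418. Trap1, the mitochondrial relative of Hsp90, differed by 0.12 (SE 0.14, adjusted p = 0.658).

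Among the 9 tested peptidase and protease genes none passed, 8 differences were positive and the median was 0.17. Pmpcb encodes the catalytic subunit of the peptidase that removes presequences. It stood at 8.56, 9.13, 8.65, 8.84, 8.79 and 8.91 on arrays 1 to 6 and 9.13, 9.50, 9.14, 9.37, 9.54 and 9.44 on arrays 7 to 12. The groups met near 9.13, with all other iPGC-1β/APCmin arrays above the FVBN/APCmin range, and the difference was 0.54 (SE 0.15, adjusted p = 0.0597). Its substrate-recognising partner Pmpca differed by 0.15 (SE 0.19, adjusted p = 0.679). Clpp, the proteolytic core of the matrix protease ClpXP, stood at 8.82, 8.99, 8.16, 8.57, 8.75 and 8.65 on arrays 1 to 6 and 8.76, 9.09, 9.06, 9.51, 10.44 and 9.91 on arrays 7 to 12. Arrays 8 to 12 exceeded all FVBN/APCmin arrays and array 7 did not, and the difference was 0.81 (SE 0.26, adjusted p = 0.0935). Clpx, the unfoldase that feeds it, differed by 0.08 (SE 0.17, adjusted p = 0.807).

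The inner membrane proteases gave a mixed picture. Afg3l2, a subunit of the m-AAA protease that faces the matrix, stood at 8.41, 8.28, 8.88, 9.04, 8.23 and 8.97 on arrays 1 to 6 and at 9.40, 10.13, 8.91, 9.40, 9.64 and 8.91 on arrays 7 to 12, a difference of 0.76 (SE 0.24, adjusted p = 0.0795) with a narrow overlap. Its alternative partners Afg3l1 and Spg7 (paraplegin) differed by -0.04 (adjusted p = 0.914) and 0.25 (0.414). Yme1l1, the protease that faces the intermembrane space, and Oma1, a stress-activated peptidase, differed by 0.17 and 0.07 (adjusted p = 0.82 and 0.811). Phb2, a prohibitin that forms rings around the m-AAA protease, stood at 11.35, 11.93, 11.63, 11.84, 11.28 and 11.43 on arrays 1 to 6 and 12.25, 12.03, 11.92, 12.08, 12.52 and 12.00 on arrays 7 to 12. Array 2 of FVBN/APCmin lay at the low edge of the iPGC-1β/APCmin values, and all others separated. The difference was 0.55 (SE 0.16, adjusted p = 0.0646). Phb, its partner in the ring, was detected on 0 arrays with raw intensity of 110 to 146, although the ring is known to need both subunits. Timm8a2 was also detected on 0 arrays. Lonp1 and Tomm20 were not analysed here.

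The promoters of the genes that rose are shown because most members had a positive difference. Coactivators of the PGC-1 family are known to work through the estrogen-related receptors and nuclear respiratory factors, whose part in these differences was not tested. Each window runs from 250 bases before to 50 after a transcription start in RefSeq (mouse build GRCm38.p6), 5′ to 3′ on the gene's strand. Capitals mark an NRF1 element, in either of its 2 common forms, in Chchd4, Dnaja3 and Immt, and a YY1 element (AANATGGC) in Timm44, read on either strand. No searched element lay in the Timm17a window. The windows are chr6:91473374-91473673 (minus strand), chr16:4683820-4684119 (plus), chr6:71831070-71831369 (plus), chr1:135313688-135313987 (minus) and chr8:4275856-4276155 (minus).
Chchd4: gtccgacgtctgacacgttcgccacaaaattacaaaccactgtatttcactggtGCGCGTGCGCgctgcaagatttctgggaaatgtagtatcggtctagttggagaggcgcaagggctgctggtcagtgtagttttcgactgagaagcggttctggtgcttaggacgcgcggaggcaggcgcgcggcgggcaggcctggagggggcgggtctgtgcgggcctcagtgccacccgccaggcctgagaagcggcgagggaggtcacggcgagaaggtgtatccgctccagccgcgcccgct
Dnaja3: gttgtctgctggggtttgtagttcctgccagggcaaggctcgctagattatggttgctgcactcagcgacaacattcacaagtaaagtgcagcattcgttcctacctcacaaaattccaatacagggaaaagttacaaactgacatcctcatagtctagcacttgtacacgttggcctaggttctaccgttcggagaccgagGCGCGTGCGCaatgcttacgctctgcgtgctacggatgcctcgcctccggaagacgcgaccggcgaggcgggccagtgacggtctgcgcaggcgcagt
Immt: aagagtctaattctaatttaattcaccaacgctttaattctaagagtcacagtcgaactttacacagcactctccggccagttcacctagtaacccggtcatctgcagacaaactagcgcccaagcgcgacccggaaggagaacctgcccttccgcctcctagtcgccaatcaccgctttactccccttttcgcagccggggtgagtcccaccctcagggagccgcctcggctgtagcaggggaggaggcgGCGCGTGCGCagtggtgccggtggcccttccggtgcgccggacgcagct
Timm17a: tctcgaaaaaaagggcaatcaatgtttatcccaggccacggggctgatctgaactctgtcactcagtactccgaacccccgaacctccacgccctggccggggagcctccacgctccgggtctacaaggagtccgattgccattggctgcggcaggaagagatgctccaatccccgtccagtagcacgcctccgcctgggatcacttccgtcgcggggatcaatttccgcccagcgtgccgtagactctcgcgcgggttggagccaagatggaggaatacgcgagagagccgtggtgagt
Timm44: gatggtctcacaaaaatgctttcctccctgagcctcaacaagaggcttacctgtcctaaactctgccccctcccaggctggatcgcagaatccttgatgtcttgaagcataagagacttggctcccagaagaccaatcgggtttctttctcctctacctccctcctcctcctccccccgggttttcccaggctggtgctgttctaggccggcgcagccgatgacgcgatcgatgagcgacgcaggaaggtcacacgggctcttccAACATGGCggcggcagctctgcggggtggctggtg

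The NRF1 element began at position -196 from the start in Chchd4, at -48 in Dnaja3 and at 2 in Immt, and the YY1 element of Timm44 at 16, with the first transcribed base as 1. Over the 32 tested members with a window, 5 held an NRF1 element (Afg3l1, Chchd4, Dnaja3, Immt and Timm8b), as did 5.13% of 7003 tested genes with a window and 2.27% of all 32851 windows. All 3 of those printed matched the second form. That form and the YY1 element were added to the search after the sequences had been viewed, and with the first form alone no member matched, so the count is a description. Timm8b was the 1 member with an estrogen-related receptor element (TNAAGGTCA), which 1.09% of tested genes held. Among the other elements searched on both strands, CACGTG, the E-box, lay in 4 windows (Hspd1, Timm10, Timm8a1 and Timm9, against 11.5% of tested genes) and CCGGAAGTG, the GABP element, in 3 (Phb2, Timm10 and Tomm70a, against 4.46%). AANATGGC lay in 3 (Phb2, Timm44 and Timm50, against 9.2%). The heat shock element, searched as GAANNTTC, lay in 3 (Hspd1, Hspe1 and Timm9, against 7.13%). A match is a run of letters in the window and not a site shown to be used.

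The Hspe1 window overlaps 1 of the 2 Hspd1 windows by 285 bases and the other by 4, which shows the head-to-head arrangement. It lies at chr1:55087898-55088197 on the plus strand, and its capitals mark the heat shock element, which begins at -84 from the Hspe1 start.
Hspe1: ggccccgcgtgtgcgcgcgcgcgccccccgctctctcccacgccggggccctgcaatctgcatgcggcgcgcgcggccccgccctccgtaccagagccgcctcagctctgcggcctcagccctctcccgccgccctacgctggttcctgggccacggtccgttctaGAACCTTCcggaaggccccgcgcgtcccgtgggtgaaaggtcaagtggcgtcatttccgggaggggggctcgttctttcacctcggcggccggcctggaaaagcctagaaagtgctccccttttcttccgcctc

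Several members work with a partner or have a paralog that does the same work, and 6 such pairs were compared as a ratio on each array. The size of a ratio depends on its 2 probes, so only its change between genotypes is read. The pairs were chosen from known partnerships after their values had been seen, and their p-values are therefore no independent evidence. Timm17a and Timm17b were not among them, because Timm17b was detected on only 1 iPGC-1β/APCmin array. The log2 ratio of Chchd4 over Gfer was -1.73, -2.23, -2.08, -2.19, -1.37 and -1.01 on arrays 1 to 6 and -1.26, 1.31, -0.58, 0.55, 0.15 and -0.54 on arrays 7 to 12. Array 7 fell among the FVBN/APCmin arrays and all others of its genotype lay above them. The ratio was higher by 1.71 (SE 0.43, exact permutation p = 0.00433 over 924 relabelings of the arrays, adjusted p = 0.026 over the 6 pairs). It missed the threshold without array 2, 3 or 4 (adjusted p = 0.0519 each). With the lymphocyte covariate the differences of Chchd4 and Gfer were 0.72 and -0.04.

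The other 5 pairs did not pass. Grpel1 over Grpel2 was higher by 1.09 (SE 0.47) and Afg3l2 over Afg3l1 by 0.80 (SE 0.34), each with an exact permutation p of 0.0476 and an adjusted p of 0.0844. Pmpcb over Pmpca was higher by 0.39 (SE 0.18, exact permutation p = 0.0563, adjusted p = 0.0844), Clpp over Clpx by 0.72 (SE 0.36, p = 0.0823, adjusted p = 0.0987) and Hspe1 over Hspd1 by 0.45 (SE 0.40, p = 0.275, adjusted p = 0.275).

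**Figure D4:**
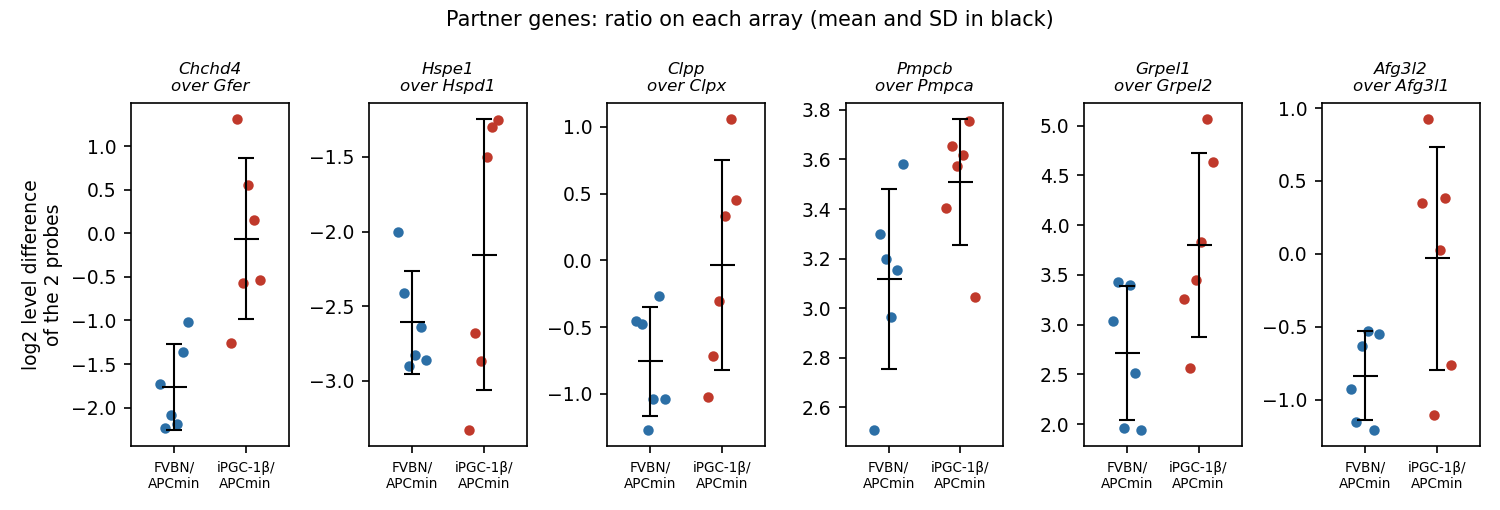
Log2 ratio of 6 partner or paralog pairs on each array (points) in FVBN/APCmin (blue) and iPGC-1β/APCmin (red), with the group mean and SD in black. The groups overlap by 1 array of each genotype for Chchd4 over Gfer (-1.01 at most against -1.26 at least) and more widely for the others.

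A shared shape ran through some of the members. Arrays 10, 11 and 12 were the 3 highest of the 12 for 9 of the 36 members (Clpp, Grpel1, Hspe1, Timm10, Timm8a1, Timm8b, Timm9, Tomm6 and Tomm7), or 25%, and for 5.1% of all genes. Grpel1 stood at 9.93, 9.95, 10.36, 10.88, 11.74 and 11.57 on arrays 7 to 12 against 9.25 to 10.30 on arrays 1 to 6. Tomm6 stood at 6.04, 6.55, 7.08, 7.83, 8.21 and 8.45 on arrays 7 to 12 against 6.40 to 7.20. In both genes arrays 7 and 8 lay inside or below the FVBN/APCmin range. The 5 genes past the threshold were not of this shape. Of these, Chchd4, Dnaja3, Timm17a and Timm44 still missed it without arrays 10, 11 and 12 (limma adjusted p = 0.175, 0.0526, 0.098 and 0.126). The pattern was noticed in these values and was not tested. Arrays 10, 11 and 12 also had the 3 lowest numbers of detected probes, 12858 to 13434 against 13498 to 14445 on the other arrays, and the part of this in the pattern was not tested. Without these 3 arrays, 26 of the 36 differences were positive, the median was 0.28, and 2 members were called higher (Hspa9 and Immt), against 0.419% of all genes.

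Import and quality-control genes whose symbols lay outside the rule were also mostly higher. They were listed with earlier results of these data known, so their counts are a description and no independent evidence. Of 21 tested, 19 had a positive difference, with a median of 0.44. Past the threshold 4 rose and 0 fell, against 2.22% and 1.23% of all genes. At an unadjusted p below 0.05 (limma), 12 were higher and 2 lower, against 11.5% and 11.8% of all genes. Chchd10, an intermembrane space protein, rose by 1.42 (SE 0.19, adjusted p = 0.00279). Aifm1, which helps import Mia40 in human cells, rose by 0.87 (SE 0.15, adjusted p = 0.00863). Atad3a, an ATPase of the inner membrane, rose by 0.63 (SE 0.15, adjusted p = 0.0355), and Mtx1, a metaxin of the outer membrane sorting machinery, by 0.64 (SE 0.17, adjusted p = 0.0498). The 2 with a negative difference were Htra2, an intermembrane space protease (-0.48, SE 0.20, adjusted p = 0.18), and Chchd2 (-0.46, SE 0.21, adjusted p = 0.212).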

How the data were processed

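Total RNA of 12 tumours was hybridised to Illumina bead arrays, 1 array each, after Qiazol extraction and biotin labelling per the labels' protocols. One deposited table gives, by array and probe, an average intensity that was not normalized and a detection p-value, per the file headers. A second deposited table holds intensity that the authors had normalized between arrays, as read from its values, and served as an alternative. The submitters' processing notes name GenomeStudio without a version. All per-sample columns were mapped to a sample.

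Background correction (normal-exponential, with the negative controls' mean and SD estimated through the detection p-values), an offset of 16, quantile normalization and log2 were applied by neqc of limma 3.58.1 in R 4.3.3. The filter described in the report kept 14827 probes, and the brightest kept probe stood for its gene. Of 15 other kept probes of 10 members, 14 had the sign of the chosen probe, the exception being 1 of Afg3l1 at 0.01. For 31 symbols that a spreadsheet had damaged the probe name was used. The genotypes were compared with lmFit and eBayes with an intensity trend over all 10967 genes, adjusted by Benjamini-Hochberg, with no covariate or batch, since the labels give none. Adjusted p-values given without a tool are from this fit, and intervals cover the spread between arrays, whose number limits the precision. Fold changes are on the offset log2 scale and understate those of dim genes. The fit was tested on simulated data.

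The members, gene lists and tests were chosen with earlier results of these data known. Values on every array are given for members past the threshold, the smallest p of each role list, the 3 most negative differences and named core members. Values on every array of Tomm7, Timm8b, Timm10, Afg3l2, Grpel1 and Tomm6, the partner ratios, the pattern of arrays 10 to 12 and 2 promoter motifs were chosen after values or sequences had been seen. Partner ratios were tested by exact two-sided permutation over 924 relabelings, and correlations over 720 pairings. Promoter windows came from RefSeq, and 32 of the 36 tested members matched. Alternatives were cyclic loess, a common 75th percentile, no filter, a detection p-value below 0.01 on 6 arrays, the mean of kept probes, no trend, array weights, the authors' table, an offset of 50, uncorrected background, lymphocyte and epithelial covariates and leaving out arrays.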

Additional observations from a re-analysis of the deposited data

Results flagged for a closer look

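Among 18 named members in 2 genotypes, 36 groups of 6 arrays were checked for an array far from the others, and 1 stood out. Chchd4, the gene for Mia40, was at a log2 level of 8.75 on array 3 of FVBN/APCmin, against 9.18 to 9.41 on the other 5 arrays of that genotype. The gap to the nearest array was 0.657 of the group's whole range, above Dixon's critical value for 6 samples. Chance flags about 1 in 20 groups, so 1 of 36 is no more than chance gives. Without array 3 the rise of Chchd4 was 0.90 and missed the threshold (limma adjusted p = 0.0595).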

How the results depend on the processing

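Counts of members past the threshold stayed at 5 with an offset of 50, no background correction, the stricter filter, the mean of probes, no trend and the authors' table, and at 4 to 6 with no filter, cyclic loess and the 75th percentile. Array weights gave 17 higher and 1 lower (all genes 1192 and 1211), leaving out arrays 6 and 7 together gave 13 higher (1056 and 1128), and leaving out arrays 10, 11 and 12, chosen after seeing the data, gave 2 (46 and 24). The lymphocyte covariate gave 0 (2 and 1), and the epithelial covariate 1 lower beside 4 higher (261 genes lower). With no filter 130 genes rose and 70 fell, and with the 75th percentile 89 fell. Leaving out 1 array gave 2 to 13 members higher, 92 to 848 genes higher and 35 to 973 lower, the highest counts without array 7. The share of called genes that rose was 64.3%, and 49.6% with array weights, 47.4% with the epithelial covariate, 48.4% without arrays 6 and 7, 44.3% without array 6, 46.6% without array 7 and 53.1% without array 8. It was 74.6% without array 1 and 75% without array 12. The median difference of the members was 0.31 with no background correction and in the authors' table, 0.37 and 0.39 with the lymphocyte and epithelial covariates, 0.28 without arrays 10, 11 and 12, and 0.44 to 0.58 with 1 array left out. The sign turned for Hspd1 with the epithelial covariate (-0.0187), for Hspe1 without arrays 10, 11 and 12 (-0.0949), for Timm50 with the epithelial covariate (-0.48), without those 3 arrays (-0.21) and with 1 array left out (-0.0129 without array 6, up to 0.216 without array 7), and for Tomm22 without those 3 arrays (-0.63) and with 1 array left out, from -0.194 without array 12 to 0.419 without array 8 (-0.18 without array 1, -0.10 without array 2, -0.11 without array 10). The correlations of Hspd1 and Hspe1 also turned, to 0.240 and -0.418, with 2 arrays left out. The causes were not tested. No paired analysis was possible because the 2 genotypes share no replicate number. Members near background, such as Timm13, Timm17b, Timm22 and Tomm40, are limited by signal.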

Other observations

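Of 21 tested cytosolic chaperone genes, 12 had a positive and 9 a negative difference, the median was 0.04, and 0 passed the threshold. At an unadjusted p below 0.05 (limma), 1 was higher and 0 lower, against 11.5% and 11.8% of all genes. The smallest p was that of Ptges3, which encodes the p23 cochaperone of Hsp90 and differed by 0.33 (SE 0.15, adjusted p = 0.192). Hspb1, the small heat shock protein Hsp27, differed by 0.96 (SE 0.51, adjusted p = 0.282). The abundant constitutive chaperone Hspa8 differed by -0.41 (SE 0.25, adjusted p = 0.354). No test compared this list with the mitochondrial one.

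The integrated stress response is a programme through which mammalian cells answer mitochondrial faults among other stresses, with Atf4 and Atf5 among its transcription factors. Of 15 tested genes, 8 had a positive difference, the median was 0.25 and 0 passed the threshold. At an unadjusted p below 0.05 (limma), 5 were higher and 0 lower, against 11.5% and 11.8% of all genes. Cebpb, a transcription factor of this and of inflammatory responses, differed by 0.61 (SE 0.21, adjusted p = 0.103). Gdf15, a secreted stress hormone, differed by 0.88 (SE 0.35, adjusted p = 0.15). Atf4 and Atf5 themselves differed by -0.08 each (SE 0.19 and 0.22, adjusted p = 0.833 and 0.871). Enzymes of serine synthesis and folate metabolism downstream of Atf4 had negative differences, none past the threshold, from -0.26 for Mthfd2 (SE 0.27) to -0.48 for Phgdh (SE 0.44). Other genes of the list had positive differences, also none past it, such as Vldlr (0.91, SE 0.38), Ddit3 (0.66, SE 0.29) and Asns (0.60, SE 0.26).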
